A study of Mus musculus with 12 samples.

Results

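The 38 HOX genes of clusters A to D in the deposited table were followed through the conversion of mouse fibroblasts to induced motor neurons. They were taken by symbol (Hoxa, Hoxb, Hoxc or Hoxd with a paralog number) from 23077 genes in all. Cluster A gave 11 genes and clusters B, C and D gave 9 each. Of the 38, 36 passed the filter on low values (3 or more libraries at a value of 10 or higher), as did 14207 genes of the whole table. Hoxb13 and Hoxd1 did not pass, with values of 0 to 16.5 and 0 to 11.3, and were not tested.

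Primary mouse embryonic fibroblasts of the genotype Hb9::GFP, a reporter of the motor neuron gene Mnx1, were collected 4 days after retroviral infection. In all 4 groups a single retroviral transcript, called NIL, delivered the neuronal factors Ngn2 (Neurog2 in the table), Isl1 and Lhx3, and the group named NIL (3 libraries) received nothing else. SDD (3 libraries) was also given SNAP-tagged p53DD, a piece of p53 that blocks the normal protein. SDDIR (2 libraries) and RISDD (3 libraries) carried that fusion on the same transcript as HRAS(G12V), a constitutively active RAS. In SDDIR, HRAS came after an internal ribosome entry site (IRES), and in RISDD it came before. Medium was changed to N3, which holds the neurotrophic factors BDNF, GDNF and CNTF and also FGF, at day 3, and RepSox, a TGF-beta receptor inhibitor, was added at that time to every group except NIL. The sort took SNAP-positive cells in those groups and any live single cell in NIL, so SDD differed from NIL by p53DD, RepSox, the SNAP stain and the sort together. The sources used here give neither the age of the embryos nor the body part from which the fibroblasts came.

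HOX genes encode homeodomain transcription factors. They lie in clusters in which gene order follows the order of expression along the head-to-tail axis, from low paralog numbers at the head to high numbers at the tail. In the limb, the high-numbered genes of clusters A and D pattern the segments from upper arm to digits. Cultured fibroblasts are known to keep a HOX pattern of the site they came from, and in spinal motor neurons HOX genes set the segmental level and the muscle targets.

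The deposited values were gene counts divided by a constant per library, called signal here. The libraries held 14872639 to 29815073 recovered reads, of which 2526 to 9997 fell on HOX genes, or 0.0163% to 0.0343% of the signal. The Trp53 row, to which reads of p53DD also map, stood at 2873 to 3674 in NIL and 32346 to 40363 in SDD. It stood at 29277 to 37068 in SDDIR and 43128 to 46185 in RISDD, so every RISDD library lay above all others. NIL C stood apart, with 0.537% of its signal on mitochondrially encoded genes against 2.60% to 4.04% in the other 10 libraries. Samples are labelled as biological replicates without mention of separate cultures, so p-values measure the spread between these samples only. All adjusted p-values are limma tests over the 14207 genes, a change is called at an adjusted p under 0.05, and folds are on the log2(value + 1) scale. In these bulk libraries, fewer cells of a type and less RNA per cell cannot be told apart.

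In SDD the members' mean levels ran from 1.61 (Hoxb13) to 308 (Hoxd13) signal per exonic kilobase, the scale used to compare levels between genes. Hoxd13, a gene of digits and genital tubercle, stood at 308 ± 72.3 signal per kb, Hoxb9, a gene of thoracic level, at 307 ± 19.6, and Hoxc6, which marks forelimb-level motor neurons, at 266 ± 28.7 (SD, n = 3 each). These 3 did not separate beyond their spread, and Hoxd8 came next at 152 ± 15.9 signal per kb. Hoxc10, Hoxc9 and Hoxc8, at 145 ± 30.7, 128 ± 29.6 and 119 ± 21.7 signal per kb, overlapped with Hoxd8 and with each other. At the bottom lay Hoxa2, Hoxa3, Hoxa4, Hoxb13, Hoxc13, Hoxd1 and Hoxd3, each with a mean level under 10 signal per kb in SDD, with Hoxa3 at 2.63 ± 0.586. Low-numbered members with more signal were Hoxb2 and Hoxb3, at 28.4 ± 3.75 and 31.4 ± 6.41 signal per kb. The SDD cultures thus held RNA of trunk members and of the distal limb gene Hoxd13 at similar levels per kb, while Hoxa13, its partner in the digits, stood at 57.2 ± 17.3.

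**Figure D1:**
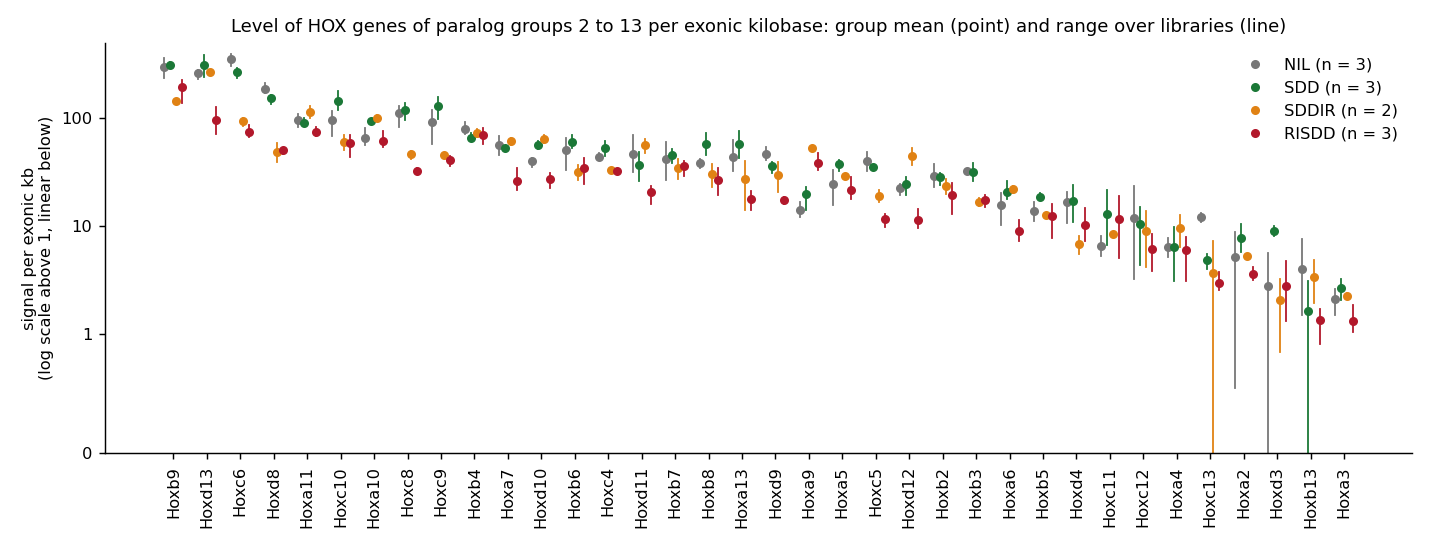
Signal per exonic kilobase of the HOX genes of paralog groups 2 to 13, ordered by their mean over the 4 groups, with points for group means and lines for the range over libraries. The axis is logarithmic above 1 and linear below it. Hoxb9, Hoxd13 and Hoxc6 lie at the upper end, and the RISDD means of Hoxd13 and Hoxc6 lie at 96.5 and 73.5 signal per kb, under their SDD means of 308 and 266.

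The order differed between groups. Hoxc6 was the highest of the 38 in NIL and stood in place 5 in SDDIR and place 4 in RISDD. Hoxd8 went from place 4 in NIL and SDD to places 12 and 8 in SDDIR and RISDD. Hoxa9, a gene of blood progenitors and of the posterior trunk, went the other way, from place 27 in NIL and 26 in SDD to 11 and 10.

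The promoters of 4 members whose changes are described below are printed, 250 bases before to 50 after the start given by RefSeq on GRCm38.p6 (the reads were quantified on GRCm39). Hoxd13 and Hoxd12 were lower in RISDD than in SDDIR, Hoxd8 fell in both HRAS groups and Hoxa9 rose in both. Coordinates are chr2:74667975-74668274, chr2:74674763-74675062 and chr2:74704365-74704664 on the plus strand and chr6:52227321-52227620 on the minus strand, and each sequence is printed along its gene's own strand. Capitals mark CG dinucleotides, the sites of DNA methylation, which are dense where Polycomb proteins usually bind.
Hoxd13: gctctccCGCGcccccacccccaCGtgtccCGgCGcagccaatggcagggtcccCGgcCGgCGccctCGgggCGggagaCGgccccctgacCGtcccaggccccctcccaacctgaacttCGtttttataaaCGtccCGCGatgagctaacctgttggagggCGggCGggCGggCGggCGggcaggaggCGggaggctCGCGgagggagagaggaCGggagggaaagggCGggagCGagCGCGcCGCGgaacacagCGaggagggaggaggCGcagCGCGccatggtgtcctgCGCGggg
Hoxd12: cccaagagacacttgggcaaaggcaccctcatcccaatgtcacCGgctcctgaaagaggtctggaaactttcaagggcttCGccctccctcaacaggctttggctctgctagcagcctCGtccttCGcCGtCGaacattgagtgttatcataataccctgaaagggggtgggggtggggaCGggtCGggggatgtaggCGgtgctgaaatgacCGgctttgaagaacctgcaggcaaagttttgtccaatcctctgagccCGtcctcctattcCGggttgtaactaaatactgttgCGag
Hoxd8: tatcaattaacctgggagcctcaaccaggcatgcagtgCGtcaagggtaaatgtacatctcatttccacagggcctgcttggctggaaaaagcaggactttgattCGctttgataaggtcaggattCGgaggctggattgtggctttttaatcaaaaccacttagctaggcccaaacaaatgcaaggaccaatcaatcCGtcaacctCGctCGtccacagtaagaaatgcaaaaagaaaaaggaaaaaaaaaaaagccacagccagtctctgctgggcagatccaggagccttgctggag
Hoxa9: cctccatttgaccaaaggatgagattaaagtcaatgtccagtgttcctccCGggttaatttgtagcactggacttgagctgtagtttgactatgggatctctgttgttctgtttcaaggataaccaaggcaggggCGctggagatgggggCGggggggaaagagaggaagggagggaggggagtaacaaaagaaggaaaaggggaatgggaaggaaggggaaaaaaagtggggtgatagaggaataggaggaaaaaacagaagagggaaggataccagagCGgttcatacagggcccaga
Hoxd13 holds 37 CG dinucleotides, Hoxd12 13, Hoxd8 6 and Hoxa9 4. The RefSeq table matched 21 of the 38 members with 23 promoters, whose median was 15 CG dinucleotides and 57.3% G and C, against 7 and 52.7% over all 32851 promoters. Of motifs searched on both strands, TGATTNAT (bound by HOX with PBX) was in 2 of the 23 HOX promoters and in 3.22% of all promoters, TTTATNG (a core of high-numbered HOX proteins) in 2 and 10.9%, TGANTCA (AP-1) in 1 and 7.81%, and CCGGAA (ETS) in 2 and 14.9%. The ETS letters were found in the Hoxd12 promoter, and the promoters of Hoxd13, Hoxd8 and Hoxa9 held none of these 4 motifs in this window.

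The first comparison, SDD against NIL, asked what p53DD, with RepSox and the sort, changed. Of 36 tested members 1 rose and none fell by the limma test, against 9.32% of all tested genes higher and 8.26% lower. At an unadjusted p under 0.05, 5 were higher and 1 lower, edgeR called 1 higher and 0 lower, and DESeq2 2 higher and 0 lower. The median log2 change of the tested members was 0.19, against 0.05 over all tested genes, and 24 of the 36 lay above 0. The summed HOX signal was 6194, 5607 and 5967 in NIL (libraries A, B and C, the order used throughout) and 6197, 6264 and 6142 in SDD. The groups overlapped, since SDD C lay below the highest NIL library. The count of 1 higher became 0 without SDD A, SDD B, SDD C or RISDD A and 2 without NIL C, and 1 member fell without SDDIR B.

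The second comparison, SDDIR against SDD, asked what HRAS after the IRES added to p53DD. The falls were most numerous in cluster C. Of 36 tested members 1 rose and 10 fell, or 27.8% lower against 13.9% of all tested genes (8.66% higher). The median log2 change was -0.44 over the tested members and 0.01 over all tested genes. In cluster C, 6 of 9 tested genes fell (Hoxc4, Hoxc5, Hoxc6, Hoxc8, Hoxc9 and Hoxc10), while cluster A had 1 fall and 1 rise of 11, cluster B 2 falls of 8 and cluster D 1 fall of 8. The median log2 change was -1.26 in cluster C, -0.72 in B, -0.25 in D and 0.08 in A.

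Hoxc6 showed the change in every library. Its signal was 885, 727 and 942 in NIL, 648, 569.5 and 707 in SDD, 242 and 205 in SDDIR, and 207, 162 and 163 in RISDD. All 5 libraries with HRAS lay at 242 or under, and every NIL and SDD library at 569.5 or above. From SDD to SDDIR Hoxc6 was 2.86-fold lower (adjusted p = 2.75e-04), at a log2 change of -1.52 ± 0.18 (SE). Hoxc8, a gene of forelimb motor pools, was 365, 343 and 234 in NIL, 352, 271 and 391 in SDD, 141 and 119 in SDDIR, and 90.3, 97.1 and 86.1 in RISDD. It was 2.57-fold lower (adjusted p = 0.00237) in SDDIR, without overlap between the 2 groups. Hoxc9, which marks the thoracic level in motor neurons and holds back forelimb-level genes there, was 289.7, 140.5 and 237 in NIL, 313, 239 and 383 in SDD, 113 and 109 in SDDIR, and 103, 87.0 and 109 in RISDD. The SDD libraries lay well above both SDDIR libraries, and Hoxc9 was 2.75-fold lower (adjusted p = 0.00619). In NIL it spread widely, with NIL B near the HRAS groups. Hoxc10, a gene of hindlimb level, was 195, 129 and 221 in NIL, 267, 224 and 340.3 in SDD, 132 and 97.2 in SDDIR, and 132, 83.9 and 116 in RISDD. It was 2.40-fold lower (adjusted p = 0.0121) in SDDIR, without overlap with SDD. Hoxc5 shares 5.37% of its exonic bases with Hoxc10 on the same strand, and the counting could split those reads. Hoxc5 and Hoxc4, genes of neck and upper trunk level, were 1.84-fold (adjusted p = 0.0298) and 1.60-fold lower (adjusted p = 0.0382).

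Outside cluster C the fall reached Hoxd8, Hoxb9 and Hoxb3, among others. Hoxd8 signal was 584, 489 and 473 in NIL, 439, 366 and 445 in SDD, 161 and 107 in SDDIR, and 129, 139 and 145 in RISDD. The HRAS libraries lay far under all others, and the change from SDD to SDDIR was 3.15-fold downward (adjusted p = 3.07e-04). Hoxb9 was 933, 775 and 607 in NIL, 848, 772 and 753 in SDD, 373 and 362 in SDDIR, and 548, 586 and 356 in RISDD. It fell 2.15-fold (adjusted p = 0.00660) and both SDDIR libraries lay under all NIL and SDD libraries. Hoxb3, a hindbrain gene, was 1.85-fold lower (adjusted p = 0.0196). For Hoxb3, 52.9% of its exonic bases overlap the antisense gene Hoxb3os, and the sources used here do not state whether the counting used strand.

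Hoxa9 was the member that rose. Its signal was 76.5, 68.0 and 92.2 in NIL, 77.8, 128 and 122 in SDD, 293 and 294 in SDDIR, and 195, 185 and 262 in RISDD. Both SDDIR libraries lay above every RISDD library, and those above every NIL and SDD library. The rise from SDD to SDDIR was 2.73-fold (adjusted p = 0.00297), at a log2 change of 1.45 ± 0.26 (SE). Hoxa10, its neighbour in the cluster and a gene of lumbar level and uterus, was 197, 262 and 185 in NIL, 309, 318 and 290.0 in SDD, 307 and 352 in SDDIR, and 177, 181 and 247 in RISDD. SDDIR and SDD overlapped, and it did not pass between them (adjusted p = 0.779), nor did Hoxa7 on the other side (adjusted p = 0.680).

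The calls of Hoxc6, Hoxc8, Hoxd8 and Hoxa9 held under every alternative run. Without SDDIR B the calls of Hoxb3, Hoxb9, Hoxc4, Hoxc5, Hoxc9 and Hoxc10 were lost (adjusted p = 0.0514 to 0.149) and 4 members were lower. Those of Hoxb3, Hoxc4 and Hoxc5 were also lost without SDDIR A (0.0652 to 0.223), without SDD B (0.0685 to 0.0941, with 6 members lower) or with quantile scaling (0.0837 to 0.165, likewise 6). Hoxc5 was lost without SDD A, Hoxc4 and Hoxc5 without SDD C, and Hoxc4 without RISDD A, RISDD B or RISDD C. Testing without a filter also ended the calls of Hoxc4 and Hoxc5 (0.0742 and 0.0533). Without NIL C 14 members were lower and 2 higher. Quantile scaling also moved the split over all tested genes, from 1230 higher and 1969 lower to 1718 and 1790. Over all alternatives the adjusted p of these 6 ranged from 6.15e-05 (Hoxc9) to 0.223 (Hoxc5).

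**Figure D2:**
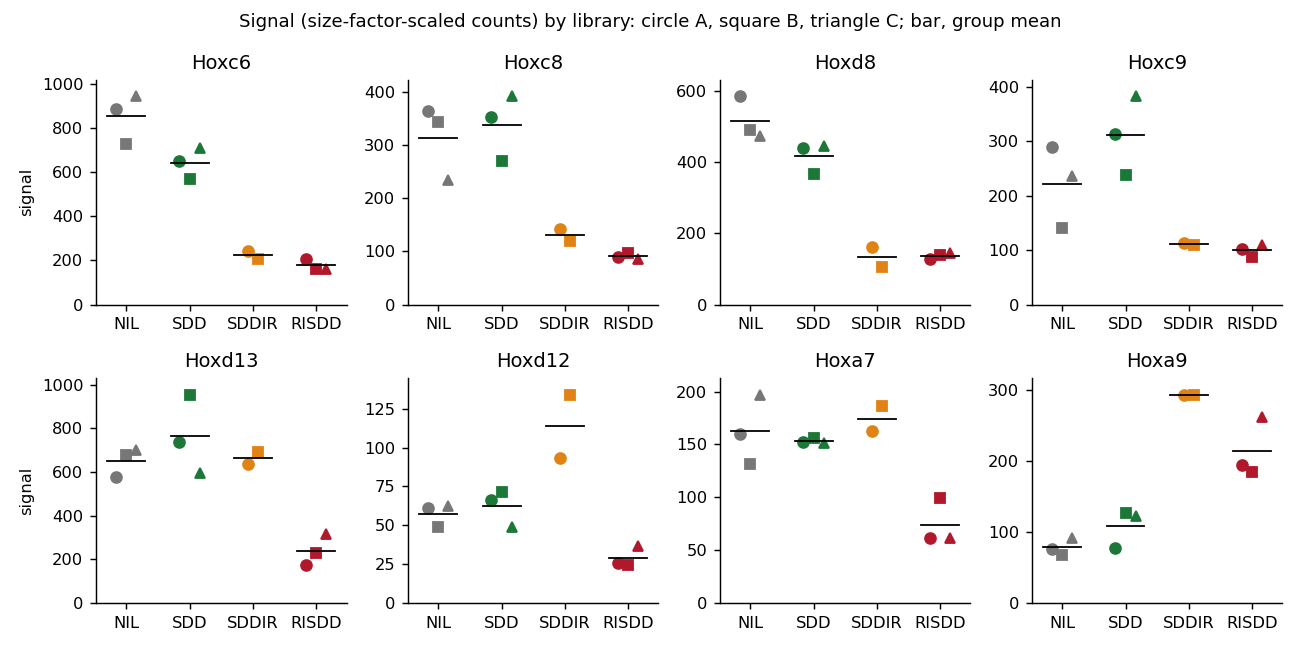
Signal of 8 HOX genes in each library, by group, with a bar at the group mean. Hoxc6, Hoxc8, Hoxd8 and Hoxc9 are low in SDDIR and RISDD, Hoxd13, Hoxd12 and Hoxa7 are low in RISDD (Hoxd13 at 176 to 315) and not in SDDIR (636 and 691), and Hoxa9 is high in both.

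The third, RISDD against SDD, asked what HRAS before the IRES added. Members of all 4 clusters fell, as in SDDIR, with more falls in every cluster but C. Of 36 tested members 1 rose and 20 fell, or 55.6% lower against 22.6% of all tested genes (20.0% higher), and 34 of the 36 log2 changes lay below 0. The median log2 change was -0.89 over the tested members and 0.02 over all tested genes. Falls numbered 5 of 11 in cluster A, 4 of 8 in B, 6 of 9 in C and 5 of 8 in D. The summed HOX signal was 3124, 3154 and 3014 in RISDD and 4208 and 4418 in SDDIR, so that the 3 RISDD libraries held about the same total and lay under all others. Quantile scaling left 12 falls, and leaving out each library in turn gave 15 (without RISDD C) to 24 (without NIL C).

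The largest folds were those of Hoxc8 and Hoxc6 in cluster C. Hoxc8 was 3.64-fold lower (adjusted p = 5.32e-05) than in SDD and Hoxc6 3.62-fold (adjusted p = 9.34e-06), at log2 changes of -1.86 ± 0.21 (SE) and -1.86 ± 0.16 (SE). Hoxc9 was 3.07-fold lower (adjusted p = 7.49e-04), and Hoxc5 2.99-fold (adjusted p = 2.66e-04). Hoxc10 changed by -1.32 ± 0.27 (SE) on the log2 scale (adjusted p = 0.00244). All 6 cluster C genes that passed in SDDIR passed here too. The fold of Hoxc4 was the smallest of the 6, at 1.63-fold (adjusted p = 0.00999). Hoxc11, Hoxc12 and Hoxc13, the high-numbered end of the cluster, had values of 0 to 43.0 in all libraries and did not pass. Hoxc13 was 30.1, 26.8 and 32.0 in NIL, 13.5, 12.6 and 9.83 in SDD, 17.8 and 0 in SDDIR, and 6.18, 9.10 and 6.32 in RISDD, highest in the NIL libraries.

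The distal limb genes Hoxd13 and Hoxa13 fell in RISDD. Hoxd13 signal was 576, 677 and 699 in NIL, 739, 954 and 598 in SDD, 636 and 691 in SDDIR, and 176, 228 and 315 in RISDD. All RISDD libraries lay at 315 or under and all others at 576 or above. Hoxd13 was 3.21-fold lower (adjusted p = 1.72e-04), at a log2 change of -1.68 ± 0.23 (SE). Hoxa13, which acts with Hoxd13 in the digits, was 78.9, 156 and 85.4 in NIL, 129.7, 189 and 106 in SDD, 34.7 and 99.6 in SDDIR, and 34.6, 51.6 and 46.6 in RISDD. RISDD and SDD did not overlap, and it was 3.09-fold lower (adjusted p = 0.00891), while 1 SDDIR library lay in the RISDD range and the other just under the lowest SDD library. Hoxd12, Hoxd10 and Hoxd9 fell 2.12-fold (adjusted p = 0.00823), 2.06-fold (adjusted p = 0.00221) and 2.03-fold (adjusted p = 0.0100). Hoxd8 fell 3.01-fold (adjusted p = 5.31e-05), against 3.15-fold in SDDIR.

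Trunk members of clusters A and B fell by 2.18-fold or less. Hoxa7 was 2.10-fold lower (adjusted p = 0.00339), Hoxb8 2.12-fold (adjusted p = 0.0110) and Hoxa6 2.18-fold (adjusted p = 0.0352). For Hoxb3 the fall was 1.78-fold (adjusted p = 0.00797), for Hoxb6 1.78-fold (adjusted p = 0.0498), for Hoxb9 1.63-fold (adjusted p = 0.0191) and for Hoxa10 1.53-fold (adjusted p = 0.0210). Hoxa9 rose 1.98-fold (adjusted p = 0.00645), the one tested member called higher. Hoxb4, a gene of neck level and blood stem cells, was 237, 181 and 185 in NIL, 185, 162 and 159.7 in SDD, 202 and 171 in SDDIR, and 179, 206 and 148 in RISDD. Its groups overlapped throughout and it passed in none of the 4 comparisons. Likewise 13 others, Hoxa2, Hoxa3, Hoxa4, Hoxa5, Hoxa11, Hoxb2, Hoxb5, Hoxb7, Hoxc11, Hoxc12, Hoxc13, Hoxd3 and Hoxd4, passed in none of the 4.

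Of the 21 calls in RISDD against SDD, 11 held under every alternative, those of Hoxc5, Hoxc6, Hoxc8, Hoxc9, Hoxc10, Hoxd8, Hoxd10, Hoxd13, Hoxa7, Hoxa9 and Hoxa13. Quantile scaling ended those of Hoxd12, Hoxd9, Hoxb3 and Hoxc4 (adjusted p = 0.0555, 0.0591, 0.0722 and 0.115), which held otherwise, and also those of Hoxa10, Hoxa6 and Hoxb6 (0.0760, 0.0768 and 0.230). Hoxb9 was lost without SDD A (0.0677) or RISDD C (0.0744) and Hoxb8 without SDD B or RISDD C (at most 0.0507). Hoxa10 was lost without SDD A, SDD B, RISDD A or RISDD B (0.0571 to 0.0843). For Hoxa6 and Hoxb6, close to the threshold, 7 and 9 of the 11 libraries ended the call when left out (0.0505 to 0.183), all but NIL A, NIL B, NIL C and RISDD A for Hoxa6 and all but NIL B and NIL C for Hoxb6. Testing without a filter ended both (0.0526 and 0.0708), and upper-quartile scaling or a pseudocount of 0.5 ended that of Hoxb6 (0.0531 and 0.0502). Over all alternatives the adjusted p of these 9 ranged from 1.07e-04 (Hoxc4) to 0.230 (Hoxb6).

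**Figure D3:**
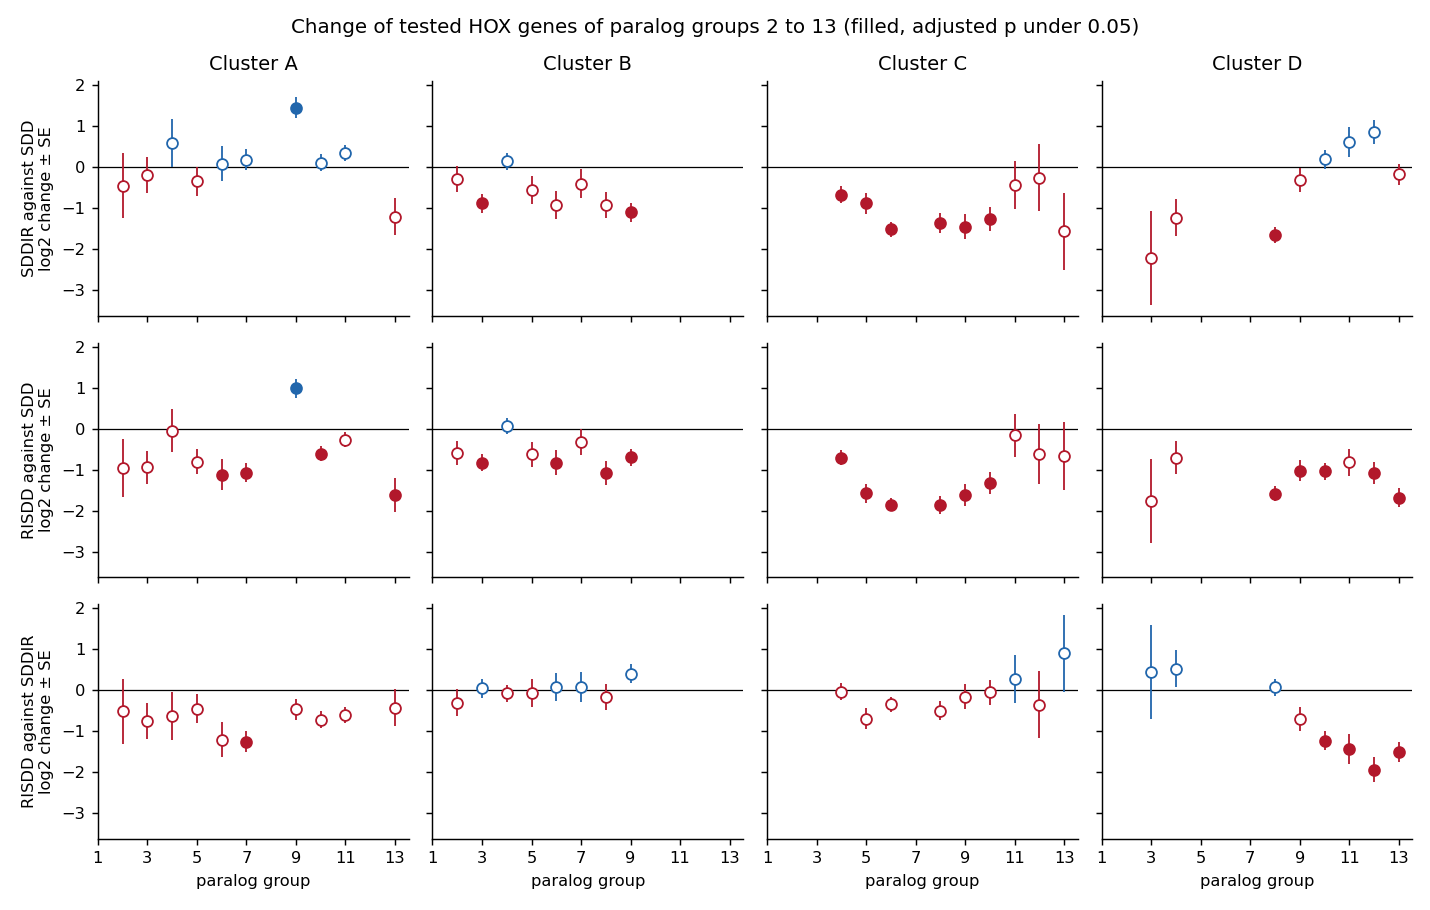
Log2 change ± SE of the tested HOX genes of paralog groups 2 to 13, by paralog group and cluster, in SDDIR against SDD, RISDD against SDD and RISDD against SDDIR, with filled points for an adjusted p under 0.05. Cluster C members from Hoxc4 to Hoxc10 lie below 0 in both comparisons with SDD, and Hoxd10 to Hoxd13 lie below 0 in RISDD against SDDIR.

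RISDD was compared with SDDIR to set the 2 orders of HRAS and p53DD side by side. The Trp53 row was also higher in every RISDD library than in both SDDIR libraries, and its part was not tested. The end of cluster D from Hoxd10 to Hoxd13 was lower with HRAS before the IRES. Of 36 tested members 5 fell, or 13.9% against 5.05% of all tested genes (4.64% higher). By the limma test 0 rose, 0 were higher at an unadjusted p under 0.05, and edgeR and DESeq2 called 0 higher. The median log2 change was -0.35 over the tested members and 0.01 over all tested genes.

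Hoxd12, a digit gene, had the largest change of these 5. Its signal was 61.0, 49.0 and 62.1 in NIL, 66.5, 71.6 and 48.5 in SDD, 93.2 and 134 in SDDIR, and 26.0, 24.3 and 36.4 in RISDD. Both SDDIR libraries lay above every other library and all RISDD libraries below, but SDDIR against SDD did not pass (adjusted p = 0.0692). Hoxd12 was 3.83-fold lower (adjusted p = 0.00406) in RISDD than in SDDIR, at a log2 change of -1.94 ± 0.30 (SE). Hoxd13 was 2.84-fold lower (adjusted p = 0.00550). Hoxd11, a forearm gene, was 133, 162 and 296 in NIL, 111, 204 and 154 in SDD, 201 and 269 in SDDIR, and 91.5, 67.8 and 99.6 in RISDD. RISDD did not overlap with SDDIR or SDD. Hoxd11 was 2.71-fold lower (adjusted p = 0.0342) than in SDDIR, and against SDD it did not pass (adjusted p = 0.0662). Hoxd10, which sets lumbar motor neuron identity, was 64.3, 78.0 and 75.7 in NIL, 111, 102 and 93.4 in SDD, 107 and 127 in SDDIR, and 40.8, 56.6 and 50.6 in RISDD. It was 2.35-fold lower (adjusted p = 0.00951), again without overlap. Hoxd10 and Hoxd11 each share exonic bases with the same-strand gene Gm28309, and the counting could split those reads.

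The other members of cluster D did not pass. Hoxd8, as given above, was 161 and 107 in SDDIR and 129 to 145 in RISDD, with overlapping groups. Hoxd9, between them, was 83.4, 65.8 and 79.2 in SDD, 83.0 and 43.9 in SDDIR, and 37.1, 39.4 and 34.0 in RISDD and did not pass (adjusted p = 0.178). Summed over Hoxd9 to Hoxd13, signal was 972 to 1398 in SDD, 1120 and 1265 in SDDIR and 371 to 536 in RISDD. Summed over Hoxd1 to Hoxd8, it was 461 to 557 in SDD, 134 and 198 in SDDIR and 172 to 197 in RISDD. The first sum was low in RISDD libraries and not in SDDIR ones, and the second was low in both. In SDD, Hoxd13 alone gave a mean of 764 of the 1160 in the first sum. Hoxd8 alone gave a mean of 417 of the 512 in the second, where Hoxd3 and Hoxd4 passed in no comparison and Hoxd1 was not tested.

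Hoxa7 was the fifth member that fell. Its signal was 160.3, 132 and 197 in NIL, 152, 156 and 152 in SDD, 163 and 186 in SDDIR, and 61.8, 99.1 and 61.6 in RISDD. It was 2.39-fold lower (adjusted p = 0.0138) in RISDD than in SDDIR. Every RISDD library lay under every other library, and 20.4% of Hoxa7's exonic bases overlap the antisense gene Hoxaas3. The 5 falls were thus 1 in cluster A and 4 in cluster D. With 2 SDDIR libraries these calls rested on SDDIR B, and all but that of Hoxd12 also on SDDIR A. Without SDDIR B limma called 0 lower, with Hoxd12 at an adjusted p of 0.0533, Hoxd13 at 0.0571, Hoxd10 at 0.0960, Hoxa7 at 0.114 and Hoxd11 at 0.235. Without SDDIR A Hoxd12 was the 1 fall and 1 member rose, and without NIL C, which enters through the shared spread, 10 members fell. Hoxa7 was also lost without RISDD A or RISDD C (0.0548 and 0.0550) and Hoxd11 without SDD C or any RISDD library (0.0601 to 0.124) or with quantile scaling (0.0763). With RISDD A left out 3 members fell. Over all alternatives the 5 ranged from 7.09e-07 (Hoxd12) to 0.235 (Hoxd11).

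**Figure D4:**
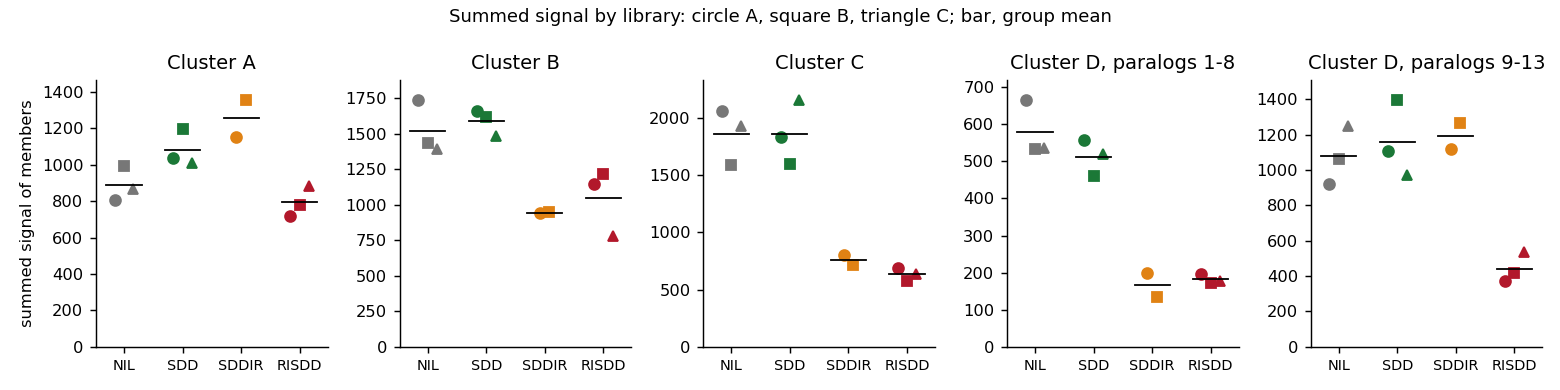
Summed signal of the members of clusters A, B and C and of cluster D paralogs 1 to 8 and 9 to 13, in each library, with a bar at the group mean. Cluster C and the Hoxd1 to Hoxd8 sum are low in both HRAS groups, while the Hoxd9 to Hoxd13 sum is low in RISDD (371 to 536) and not in SDDIR (1120 and 1265). Most of these 2 sums in SDD is Hoxd8 (mean 417 of 512) and Hoxd13 (mean 764 of 1160).

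By position along the clusters, the falls in RISDD against SDD numbered 2 of 6 in paralog groups 1 to 3, 9 of 15 in groups 4 to 8 and 9 of 15 in groups 9 to 13, with median log2 changes of -0.95, -0.83 and -0.82. In SDDIR against SDD they were 2 of 6, 5 of 15 and 3 of 15, with medians of -0.67, -0.67 and -0.26. Between RISDD and SDDIR, 4 of the 5 falls were in paralog groups 9 to 13, all of them in cluster D. Over all tested genes 22.6% fell in RISDD against SDD, 13.9% in SDDIR against SDD and 5.05% in RISDD against SDDIR.

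Markers of other cells moved along the same groups, and their part in the HOX changes was not tested. Of all tested genes 9.32% rose in SDD against NIL, and 8.66% rose and 13.9% fell in SDDIR against SDD. In RISDD against SDD 20.0% rose and 22.6% fell, and in RISDD against SDDIR 4.64% rose and 5.05% fell. Of 10 fibroblast markers 8 fell and 1 rose in SDDIR against SDD, and 9 fell and 1 rose in RISDD against SDD, where the median log2 change was -2.46. Their summed signal was 594135 to 725945 in SDD, 223209 to 235936 in SDDIR and 174511 to 181206 in RISDD. Of 7 tested epithelial markers 2 rose in SDDIR and 7 in RISDD, and the sum of all 8 went from 63.9 to 72.2 in SDD to 2432 to 3772 in SDDIR and 8744 to 12803 in RISDD. Between RISDD and SDDIR 5 fibroblast markers fell and 5 epithelial markers rose. Of 6 tested motor neuron markers, 3 rose in SDD against NIL, 3 fell in SDDIR against SDD, and 1 rose and 3 fell in RISDD against SDD. These 6 included Isl1 and Lhx3, which the virus delivered, so the counts are not of the cells' own genes alone. Chat, the acetylcholine-synthesizing enzyme, was listed at 0 in every library. Of 9 tested general neuron markers, 4 rose in SDD against NIL, 1 fell in SDDIR against SDD, and 3 rose and 5 fell in RISDD against SDD. Leukocyte markers summed to 1358 to 6090 in NIL and 345 to 1271 in the other groups. Endothelial markers summed to 50.5 to 168 in NIL, SDD and SDDIR and 503 to 611 in RISDD, and Schwann and neural crest markers to 95.2 to 504 across all libraries. The 6 muscle markers summed to at most 85.4. The delivered Neurog2, Isl1 and Lhx3 were all lower in both SDDIR libraries (Lhx3 at 70972 and 96814) than in every SDD library (103782 to 136750). In RISDD, Neurog2 (57909 to 59719) also lay under every SDD library (60593 to 79075), while Isl1 and Lhx3 overlapped with SDD.

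The TALE homeodomain proteins of the PBX, MEIS and PKNOX families bind DNA together with HOX proteins, and TGIF proteins are relatives that repress. Of these 11 genes, all tested, 3 rose in SDD against NIL, 2 rose and 4 fell in SDDIR against SDD, 1 rose and 5 fell in RISDD against SDD, and 1 rose and 2 fell in RISDD against SDDIR. The shares of all tested genes called were 9.32% higher in SDD against NIL, 8.66% higher and 13.9% lower in SDDIR against SDD, 20.0% and 22.6% in RISDD against SDD, and 4.64% and 5.05% in RISDD against SDDIR. Meis1 was 858, 583 and 754 in NIL, 2164, 1169 and 1541 in SDD, 679 and 558 in SDDIR, and 638, 544 and 704 in RISDD. It was 2.18-fold higher (adjusted p = 0.00883) in SDD than in NIL, and 2.55-fold (adjusted p = 0.00365) and 2.51-fold lower (adjusted p = 8.57e-04) than SDD in SDDIR and RISDD. The HRAS libraries lay between 544 and 704, overlapping with NIL, and the SDD libraries above all others.

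Pbx3 was 1258, 1159 and 728 in NIL, 1939, 1763 and 1299 in SDD, 918 and 875 in SDDIR, and 411, 406 and 454 in RISDD. It was lower than in SDD with both orders of HRAS, 1.83-fold (adjusted p = 0.0233) in SDDIR and 3.88-fold (adjusted p = 3.98e-05) in RISDD, and was 2.12-fold lower (adjusted p = 0.0186) in RISDD than in SDDIR. Pknox2 changed by -1.32 ± 0.22 (SE) and -1.38 ± 0.20 (SE) on the log2 scale in SDDIR and RISDD (adjusted p = 0.00203 and adjusted p = 2.72e-04). Tgif1 was 1.71-fold and 2.21-fold higher (adjusted p = 0.0163 and adjusted p = 4.01e-04). Calls lost with a library left out were those of Pbx3 and Tgif1 in SDDIR against SDD (Pbx3 without SDD A, SDD B, SDDIR A or SDDIR B at 0.0708 to 0.137, Tgif1 without SDDIR A or SDDIR B at 0.133 and 0.0666). The Pbx3 call between RISDD and SDDIR was lost without any library of either group (0.0516 to 0.146), and that of Meis1 in SDD against NIL with only the 2 groups fitted (0.0562). Over all alternatives these calls ranged from 4.54e-05 (Pbx3, RISDD against SDDIR) to 0.146.

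**Figure D5:**
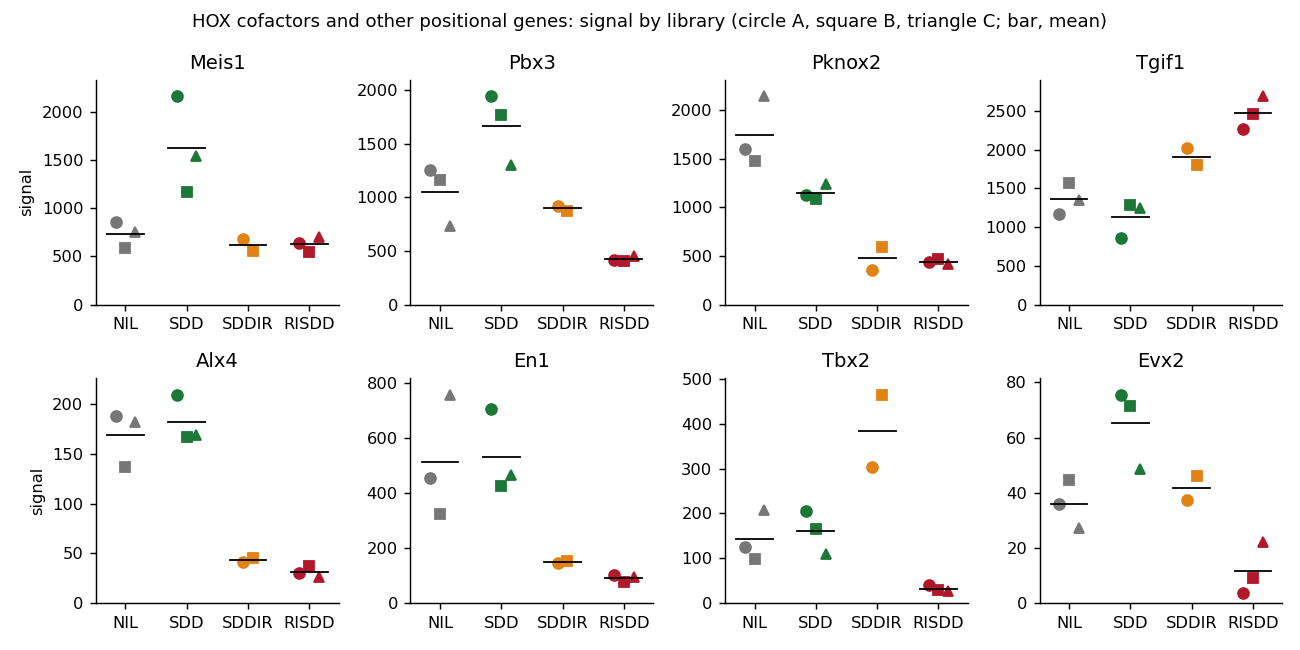
Signal of the TALE genes Meis1, Pbx3, Pknox2 and Tgif1 and of the positional genes Alx4, En1, Tbx2 and Evx2 in each library, by group, with a bar at the group mean. Evx2, next to Hoxd13, lies at 3.71 to 22.1 in RISDD and 37.3 and 46.2 in SDDIR, and Tbx2 is highest in SDDIR (302 and 465).

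Polycomb proteins keep HOX genes silent where they are not used, and Trithorax proteins keep them active. Of 28 Polycomb genes 1 rose and 1 fell in SDDIR against SDD, and 4 rose and 8 fell in RISDD against SDD, with median log2 changes of 0.04 and -0.17. Of all tested genes 8.66% rose and 13.9% fell in the former and 20.0% and 22.6% in the latter, and the list's shares in RISDD were near these. Jarid2, an accessory subunit of the H3K27 methylase complex, rose 1.77-fold (adjusted p = 0.00363) in SDDIR and 2.48-fold (adjusted p = 3.29e-05) in RISDD. Cbx6, a chromobox reader, was 2.28-fold lower (adjusted p = 2.01e-04) in RISDD, and Phf19, another accessory subunit, was 3.40-fold lower (adjusted p = 0.00117). Ezh2, the methylase itself, rose 2.03-fold (adjusted p = 0.00569) in SDD against NIL, a call lost with only the 2 groups fitted (0.0520, range 2.38e-05 to 0.0520). Of 10 tested Trithorax, demethylase and CDX genes 3 rose and 1 fell in RISDD against SDD (20.0% and 22.6% of all tested genes), and among them Wdr5, a subunit of H3K4 methylase complexes, was 1.58-fold higher (adjusted p = 0.00182).

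Genes beside the clusters were measured as well. Of 16 tested genes within 565 kb of a member 1 rose and 2 fell in SDDIR against SDD and 1 rose and 4 fell in RISDD against SDD, with median log2 changes of -0.06 and -0.02. Their shares of falls were near those of all tested genes, 13.9% in SDDIR and 22.6% in RISDD. Evx2, a homeobox gene 8.75 kb from Hoxd13 by the GRCm38 annotation, was 35.8, 44.6 and 27.2 in NIL, 75.5, 71.6 and 48.5 in SDD, 37.3 and 46.2 in SDDIR, and 3.71, 9.10 and 22.1 in RISDD. RISDD lay under all other groups. Evx2 was 6.30-fold lower (adjusted p = 0.00175) than in SDD and 4.12-fold lower (adjusted p = 0.0488) than in SDDIR, the latter lost without any one of 9 libraries (all but NIL C and RISDD C, 0.0519 to 0.248). It was also lost with a pseudocount of 0.5, with no filter, without trend and robust moderation and with edgeR (0.0525 to 0.0710), within 0.00969 to 0.248 over all alternatives. Jazf1, a zinc-finger gene 508 kb from Hoxa13, was 10.4-fold (adjusted p = 3.14e-05) and 14.1-fold lower (adjusted p = 1.01e-06) in SDDIR and RISDD. Copz2, a vesicle coat gene 496 kb from Hoxb2, was 2.83-fold (adjusted p = 2.81e-04) and 5.54-fold lower (adjusted p = 1.41e-06).

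Positional factors of limb and trunk other than HOX genes were also followed. Of 30 tested 1 rose and 6 fell in SDDIR against SDD and 2 rose and 17 fell in RISDD against SDD, with median log2 changes of -0.81 and -1.38. The shares of falls over all tested genes were 13.9% and 22.6%. Alx4, an anterior limb bud factor, was 189, 137 and 182 in NIL, 209.7, 167 and 169 in SDD, 41.5 and 45.1 in SDDIR, and 29.7, 37.4 and 26.1 in RISDD. It was 4.11-fold (adjusted p = 3.07e-04) and 5.74-fold lower (adjusted p = 9.81e-06), with no overlap between HRAS libraries and others. En1, a factor of ventral limb ectoderm and dermis, was 3.48-fold (adjusted p = 0.00333) and 5.72-fold lower (adjusted p = 7.17e-05). Meox2 and Alx1 were 8.39-fold (adjusted p = 5.43e-04) and 5.82-fold lower (adjusted p = 0.00606) in RISDD, and Prrx2 and Gli3 5.12-fold (adjusted p = 0.00212) and 2.99-fold lower (adjusted p = 3.50e-05) in SDDIR. These genes lay under every SDD library in the other HRAS group too. Meox2 was 54.2 and 24.9 and Alx1 15.2 and 17.8 in SDDIR, and Prrx2 was 97.7 to 119 and Gli3 744 to 873 in RISDD.

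Tbx2, a limb margin factor, had its highest values in SDDIR, as did Hoxd12. Its signal was 125, 97.0 and 208 in NIL, 205, 165 and 109 in SDD, 302 and 465 in SDDIR, and 39.6, 29.3 and 26.9 in RISDD. It was 11.6-fold lower (adjusted p = 6.07e-04) in RISDD than in SDDIR. The limb identity factors Tbx5 of the forelimb and Tbx4 of the hindlimb were 2.27-fold (adjusted p = 0.0189) and 2.78-fold lower (adjusted p = 0.0280), and Tbx3 was 2.19-fold higher (adjusted p = 0.00401). Of these, Tbx4 and Tbx5 were lost without RISDD A, RISDD B, SDDIR A or SDDIR B (0.0676 to 0.236, and 3.13e-04 to 0.236 over all alternatives), and Tbx3 without SDDIR A (0.0554, and 1.34e-07 to 0.0554). Both limb identity factors had signal in every library, Tbx5 at 27.2 to 128 and Tbx4 at 95.1 to 578.

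Head and brain factors were scarce, with 8 of 24 past the filter on low values. In RISDD against SDD 1 rose and 5 fell of these 8, against 20.0% and 22.6% of all tested genes. Pax5, a midbrain and B-cell factor, fell to 0 to 4.04 from 44.0 to 128 in SDD (adjusted p = 2.11e-04). Among 12 tested genes of motor neuron columns and spinal position, 4 rose and 4 fell in RISDD against SDD, where 20.0% of all tested genes rose and 22.6% fell. Mnx1 was 15.5, 7.80 and 31.1 in NIL, 127, 64.8 and 90.3 in SDD, 12.7 and 7.11 in SDDIR, and 14.8, 5.06 and 2.37 in RISDD. It was high in the SDD libraries alone, 5.50-fold higher (adjusted p = 0.0249) than in NIL and 8.70-fold (adjusted p = 0.00978) and 13.4-fold lower (adjusted p = 7.98e-04) than SDD in the HRAS groups. The call against NIL was lost with SDD A, SDD C or NIL B left out (0.0567 to 0.0932) and that in SDDIR without SDDIR B (0.0940), within 0.00154 to 0.0932 and 1.34e-04 to 0.0940 over all alternatives. Foxp1, the HOX accessory factor that sets the limb motor column, was 1082, 1192 and 1198 in NIL, 1167, 1189 and 1069 in SDD, 909.6 and 1001 in SDDIR, and 1348, 1548 and 1629 in RISDD, and it was 1.58-fold higher (adjusted p = 0.0120) in RISDD than in SDDIR, a call lost without RISDD B, RISDD C, SDDIR A or SDDIR B (0.0548 to 0.135, range 1.19e-05 to 0.135).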

How the data were processed

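Bulk polyA RNA-seq of sorted cells was deposited as 1 table of 12 value columns. The authors trimmed reads with Trim Galore 0.6.10 and quantified them with Salmon 1.10.3 on GRCm39, per the submitters' processing notes. The deposited values are a signal, gene counts divided by a constant per library, and 100% of values were whole multiples of 1 read within 0.001. A column repeated under the same SDDIR name was counted once, which left 11 libraries, and a further SDDIR sample was not analysed here. Genes that reached a value of 10 in 3 or more libraries were fitted with limma 3.58.1 (R 4.3.3) on log2(value + 1), with trend and robust moderation, all 4 groups together and Benjamini-Hochberg adjustment over all tested genes. Alternatives were 12 settings, among them edgeR 4.0.16 and DESeq2 1.42.0 on the recovered reads, and each of the 11 libraries left out. The fit was tested on simulated data. Values in every library were given for at most the 6 largest changes per direction and comparison and for the highest member of each cluster, and at most 4 genes were named from each other list. Exonic lengths and distances came from GENCODE M21 on GRCm38. Members and lists were chosen with earlier results of these data known. Genes most like a member were not named, because the libraries fall into separate groups. Hoxb1 and the noncoding RNAs of the clusters were not analysed here. A few genes counted in the totals are not reported here by name. Samples with the same letter were checked for pairing by their deviations from the group mean. These correlated at 0.000225 to 0.271 over 15 pairs, with 9 over 0.1. Over 30 pairs of other letters, which are not independent of the former, they correlated at -0.198 to 0.137, with 1 over 0.1. Since not every same-letter pair exceeded 0.1, the rule for taking the letter as a pairing was not met.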

Additional observations from a re-analysis of the deposited data

How the results depend on the processing

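No change that passed the test turned its direction under any alternative, while log2 changes that did not pass could change sign. In SDD against NIL, the 1 member higher became 0 with quantile scaling, with a minimum value of 50 and with only the 2 groups fitted, and 2 with DESeq2. In SDDIR against SDD, the 1 higher became 2 with quantile scaling, pseudocount 10, neither trend nor robust moderation, array weights, only the 2 groups fitted and DESeq2, and the 10 lower became 6 with quantile scaling, 13 with DESeq2 or only the 2 groups fitted and 15 with array weights. In RISDD against SDD, the 20 lower became 12 with quantile scaling. In RISDD against SDDIR, the 5 lower became 11 with array weights, whose weights stopped short of convergence, and 8 with only the 2 groups fitted, which is a fit on fewer samples. The cause was otherwise not tested.

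Leaving out 1 library at a time gave 0 to 2 higher and 0 to 1 lower in SDD against NIL, 1 to 2 higher and 4 to 14 lower in SDDIR against SDD, 1 higher and 15 to 24 lower in RISDD against SDD, and 0 to 1 higher and 0 to 10 lower in RISDD against SDDIR. When an SDDIR library was left out, the other was assumed to vary like the other groups. With the replicate letter as a block, counts were 2 higher and 0 lower in SDD against NIL, 1 and 10 in SDDIR against SDD, 1 and 21 in RISDD against SDD, and 0 and 5 in RISDD against SDDIR. The block ended the calls of Hoxc4 in SDDIR against SDD (adjusted p = 0.0692), Hoxb6 in RISDD against SDD (0.0724) and Evx2 in RISDD against SDDIR (0.0638). Of same-letter pairs 9 of 15 correlated above 0.1, and of other pairs 1 of 30. This is at most a hint of pairing, from the data and not from the design. Deviations from a group mean cancel within the group, so the pairs were not independent and the other pairs were no separate baseline. The 2 SDDIR libraries mirrored each other, with NIL A at 0.124 with SDDIR A and -0.124 with SDDIR B. Depth limits the low members, since HOX genes held 2526 to 9997 reads per library.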
